A study of Homo sapiens with 4 samples.

Results

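The genes that encode the proteasome and its regulators were followed in HCC1954, an established human breast cancer cell line. Members were the protein-coding genes of the count table whose symbols run from PSMA to PSMG followed by a number, and they came to 48 of 58735 genes, of which 19951 were protein-coding. PSMB8, PSMB9, PSMB10, PSME1 and PSME2 were treated as the 5 interferon-inducible members and the remaining 43 as constitutive. The rule names genes by symbol and not by level, but it was set with earlier results of these samples known. Total RNA was sequenced from 2 samples of cells with a scrambled control hairpin (shCON) and 2 samples of cells with a hairpin against ZDHHC15 (shZDHHC15), a transferase that attaches palmitate to proteins. Both hairpins came as GIPZ lentiviral vectors. The series text speaks of stable knockdown, while the treatment label describes transient transfection of the plasmids and harvest 36 h later, and the study's methods add that monoclonal cultures were screened by blotting. No label names an interferon, a palmitic acid or a proteasome inhibitor treatment for these samples. Whether the numbers 1 and 2 of a group stand for separate cultures, clones or hairpins is not given, so the p-values here measure only the spread between these samples, which may be technical.

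The proteasome degrades proteins marked with ubiquitin. Its 20S core is a barrel of alpha and beta rings, in which PSMB5, PSMB6 and PSMB7 carry the protein-cutting sites, and its 19S cap binds, unfolds and feeds in the substrate. Interferon replaces the 3 cutting subunits by PSMB8, PSMB9 and PSMB10, which makes the immunoproteasome, and raises PSME1 and PSME2, which form the PA28 activator. Peptides cut by this form are carried by the TAP transporter to MHC class I molecules for display to T cells.

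The 4 samples held between 17560982 and 19118704 counts, of which between 0.669% and 0.718% fell on the 48 members. ZDHHC15 had 17617 and 15716 counts in the shCON samples and 0 in each shZDHHC15 sample, where a count of 0 allows up to 3 counts, for counting error only. All 10 breast epithelial markers were expressed, with 7 lower and 1 higher in shZDHHC15 cells, and their summed counts were 390178 and 390849 in shCON against 246694 and 266185 in shZDHHC15, the largest falls being those of the keratins KRT8 (log2 fold change -1.62), KRT18 (-1.58) and KRT7 (-0.99). Of 18 leukocyte markers, whose summed counts were 210 and 227 in shCON and 144 and 159 in shZDHHC15, 3 had enough counts to be tested (CD14 higher at 1.61, CSF1R lower at -1.06, CD8A lower at -1.29). PTPRC had between 1 and 4 counts per sample, and CD3D, CD3E, CD2 and MS4A1 had 0 in all 4. Of 10 fibroblast and endothelial markers, with summed counts of 1148 and 1091 in shCON and 2221 and 2153 in shZDHHC15, 4 were tested, of which PECAM1 (2.91), COL1A1 (0.65) and CDH5 (0.65) were higher and KDR (-0.64) was lower, while PDGFRA, COL3A1, DCN and LUM had at most 1 count in any sample. Beside these calls, 21.7% of all 15817 tested genes were called higher and 20.3% lower, at an edgeR adjusted p under 0.05. The part of these marker changes in the results on the members was not tested.

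The interferon-stimulated response element (ISRE) is the DNA motif bound by interferon-activated transcription factors, and its core was searched for as GAAANNGAAA on both strands of the RefSeq promoter windows of GRCh38.p14, which run from 250 bases before each start to 50 bases from it. Of the 48 members, 42 had a window. The core was found in 4 of the 5 interferon-inducible genes (PSMB8, PSMB10, PSME1 and PSME2), in 3 of 37 constitutive genes (PSMA4, PSMB4 and PSMG4) and in 4.38% of the 27305 genes in the table. The stretches of 150 bases before and 20 bases from the start are shown for the 5 inducible members and for TAP1, the transporter gene whose start lies 488 bases from that of PSMB9 on the opposite strand. PSMB8 and TAP1 each have 2 starts in the table, and the start shown, the lower for PSMB8 and the upper for TAP1, was picked because its window holds the core, while the window of the other start holds none. Each is written on the strand of its gene, with the ISRE core, on either strand, in capitals.
PSMB8 (lower start): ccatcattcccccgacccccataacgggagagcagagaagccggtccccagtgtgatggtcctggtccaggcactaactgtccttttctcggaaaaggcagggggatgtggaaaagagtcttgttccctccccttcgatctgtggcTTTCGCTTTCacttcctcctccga
PSMB10: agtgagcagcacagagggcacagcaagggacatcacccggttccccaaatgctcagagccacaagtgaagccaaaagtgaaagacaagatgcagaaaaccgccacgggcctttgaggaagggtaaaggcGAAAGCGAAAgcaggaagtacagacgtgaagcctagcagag
PSME1: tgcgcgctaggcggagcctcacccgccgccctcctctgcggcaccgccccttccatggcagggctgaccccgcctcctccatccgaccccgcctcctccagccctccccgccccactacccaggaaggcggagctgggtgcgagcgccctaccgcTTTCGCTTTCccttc
PSME2: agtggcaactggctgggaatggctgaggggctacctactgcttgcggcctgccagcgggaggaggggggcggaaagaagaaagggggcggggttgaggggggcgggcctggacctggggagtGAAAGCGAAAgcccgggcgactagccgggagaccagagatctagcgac
PSMB9: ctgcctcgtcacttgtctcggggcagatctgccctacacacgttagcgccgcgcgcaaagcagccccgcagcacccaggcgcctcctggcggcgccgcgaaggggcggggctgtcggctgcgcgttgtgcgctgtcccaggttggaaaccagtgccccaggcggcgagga
TAP1: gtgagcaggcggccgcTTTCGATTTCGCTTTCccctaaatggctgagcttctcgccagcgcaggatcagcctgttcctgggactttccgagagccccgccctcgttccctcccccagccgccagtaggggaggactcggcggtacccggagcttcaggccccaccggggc
Their positions, in the order shown, are chr6:32844028-32844197 on the minus strand, chr16:67936831-67937000 on the minus strand, chr14:24136044-24136213 on the plus strand, chr14:24146591-24146760 on the minus strand, chr6:32854042-32854211 on the plus strand and chr6:32853685-32853854 on the minus strand. Counted from 1 at the start base and from -1 at the base before it, the core lay at -4 to 6 in PSMB8, at -21 to -12 in PSMB10, at 6 to 15 in PSME1 and at -28 to -19 in PSME2. The window of PSMB9 held none, and the 2 overlapping cores of TAP1, at -134 to -119 of that gene, lie 354 to 369 bases before the start of PSMB9. A match of letters is a description and not a measured binding site. The other motifs searched were GAS, the interferon-gamma-activated site, as TTCNNNGAA (1 of 5 inducible genes, 7 of 37 constitutive genes, 9.38% of all genes), the core of the antioxidant response element as TGACNNNGC (3 of 5, 12 of 37, 16.1%) and the CCAAT box as CCAAT (1 of 5, 19 of 37, 39.7%).

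All 5 interferon-inducible members rose in shZDHHC15 cells, by 1.78-fold (PSME1) to 3.40-fold (PSMB9). The constitutive members, by contrast, moved in both directions, 6 being higher and 9 lower among the 41 tested. For comparison, 21.7% of all 15817 tested genes were called higher and 20.3% lower (edgeR quasi-likelihood test, Benjamini-Hochberg adjusted p under 0.05). The median log2 fold change was 1.09 over the inducible members, -0.10 over the tested constitutive members and 0.015 over all tested genes. In either direction, 15 of the 41 tested constitutive members were called, beside 42% of all tested genes.

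PSMB9 (ENSG00000240065), the beta1i subunit that replaces PSMB6, had the largest fold change of the 46 tested members. Its normalized level was 49.1 and 66.0 CPM (counts scaled to a common library size) in the shCON samples and 218 and 172 CPM in the shZDHHC15 samples. Both shZDHHC15 samples lay above both controls, with a log2 fold change of 1.76 (SE 0.139, edgeR adjusted p = 1.72e-07). Such separation was common, since in 37.2% of all tested genes both shZDHHC15 samples lay above both controls and in 35.3% both lay below. PSMB8 (ENSG00000204264), the beta5i subunit that replaces PSMB5, had 115 and 135 CPM in shCON against 280 and 252 CPM in shZDHHC15. The groups did not overlap, and the log2 fold change was 1.09 (SE 0.103, edgeR adjusted p = 1.15e-06). PSMB10 (ENSG00000205220), the beta2i subunit that replaces PSMB7, stood at 11.79 and 12.04 CPM in shCON and at 28.4 and 27.6 CPM in shZDHHC15. It was the least abundant of the 5 and changed by 1.23 on the log2 scale, again with no overlap (SE 0.134, edgeR adjusted p = 4.75e-06).

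The genes of the PA28 alpha and beta subunits rose by 1.78-fold and 2.03-fold. PSME1 (ENSG00000092010) had 126 and 132 CPM in shCON against 238 and 223 CPM in shZDHHC15, a log2 fold change of 0.84 (SE 0.0923, edgeR adjusted p = 5.73e-06). PSME2 (ENSG00000100911) had 128 and 137 CPM against 280 and 259 CPM, a log2 fold change of 1.02 (SE 0.0934, edgeR adjusted p = 8.27e-07). In each gene both shZDHHC15 samples lay above both controls, as they did in 37.2% of all tested genes. PSME3, the PA28 gamma subunit of the nucleus, which forms its own ring without the alpha and beta subunits, had 296 and 297 CPM in shCON and 270 and 282 CPM in shZDHHC15. Its groups did not overlap on this scaling but did when counts were scaled by library size only, and the difference did not pass the test (log2 fold change -0.10, SE 0.0872, edgeR adjusted p = 0.364). In levels divided by gene length, PSME1 stood at 1.24 and 1.29 times PSME3 in shCON and at 2.55 and 2.29 times in shZDHHC15. PSME2 went from 0.623 and 0.664 times PSME3 to 1.49 and 1.32 times. By this length it lay below PSME3 in both controls and above it in both shZDHHC15 samples. These positions depended on the division by length. In CPM, PSME1 lay below PSME3 in every sample. PSME2 in CPM lay above PSME3 in shZDHHC15 sample 1 (280 against 270) and below it in sample 2 (259 against 282).

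Of the constitutive cutting subunits, PSMB6 and PSMB7 fell and PSMB5 missed the threshold. PSMB6, the beta1 subunit with caspase-like activity, had 112 and 130 CPM in shCON and 91.6 and 92.7 CPM in shZDHHC15 (log2 fold change -0.39, SE 0.102, edgeR adjusted p = 0.00614). PSMB7, the beta2 subunit with trypsin-like activity, had 212 and 227 CPM against 186 and 182 CPM (-0.25, SE 0.0902, edgeR adjusted p = 0.0339). PSMB5, the beta5 subunit with chymotrypsin-like activity, had 183 and 192 CPM against 158 and 162 CPM and did not pass the test (-0.23, SE 0.0905, edgeR adjusted p = 0.0546). In all 3 genes both shZDHHC15 samples lay below both controls, as they did in 35.3% of all tested genes. The call of PSMB7 was lost and that of PSMB5 gained under some alternative settings.

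Each inducible subunit was set against the one it replaces as a ratio of levels per length (TPM, counts divided by gene length and scaled to a common sum) in every sample. PSMB9 over PSMB6 was 0.207 and 0.239 in shCON and 1.12 and 0.876 in shZDHHC15, a 4.49-fold higher mean ratio. The ratio of PSMB8 to PSMB5 was 0.371 and 0.413 in shCON and 1.04 and 0.917 in shZDHHC15, 2.50-fold higher. PSMB10 over PSMB7 was 0.0536 and 0.0512 in shCON and 0.148 and 0.146 in shZDHHC15, 2.80-fold higher. The first 2 pairs lay below 1 in both controls and close to 1 in the shZDHHC15 samples by this length, but the latter level depended on the length used. Without division by length the shZDHHC15 means were 2.12 for PSMB9/PSMB6 and 1.67 for PSMB8/PSMB5, against 0.472 and 0.666 in shCON. With each gene's full counts divided only by the length of its exonic bases that no other gene overlaps, PSMB8/PSMB5 was 1.24 against 0.494. Any reads counted in shared bases were not removed, and how such reads were assigned is not given in the sources used here. PSMB10 stayed the minor partner at 12.9% and 12.7% of its pair. No ratio overlapped between groups, and with 2 samples against 2 the smallest two-sided p of an exact permutation test is 0.333, so none was tested. PSMB10 shares 45.3% of its principal transcript with another gene on the same strand. The part of this sharing in the low level of PSMB10 was not tested. With the full counts over the length of unshared exonic bases, PSMB10/PSMB7 was 0.0804 in shCON and 0.225 in shZDHHC15. Summed over the 5 inducible members, the level per length was 582 and 610 TPM in shCON and 1428 and 1283 TPM in shZDHHC15, while the constitutive members summed to 7109 and 7256 TPM and to 6830 and 6768 TPM.

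**Figure D1:**
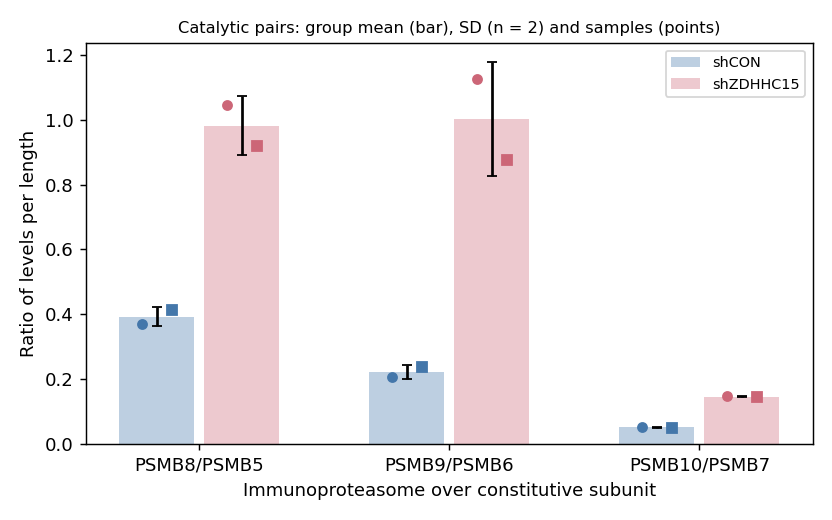
Ratio of levels per length for each immunoproteasome subunit over the constitutive subunit it replaces, with bars at group means, whiskers of 1 SD (n = 2) and points for samples. Mean ratios were 0.223 and 1.00 for PSMB9/PSMB6, 0.392 and 0.981 for PSMB8/PSMB5 and 0.0524 and 0.147 for PSMB10/PSMB7, in shCON and shZDHHC15 respectively.

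In the constitutive 20S core, 3 of the 7 beta subunits PSMB1 to PSMB7 passed the test, namely PSMB6, PSMB7 and PSMB1 (-0.32). All 3 were lower, beside 20.3% of all tested genes. Both shZDHHC15 samples lay below both controls in 7 of the 7, beside 35.3% of all tested genes, but in 4 of the 7 when counts were scaled by library size only, where PSMB2, PSMB3 and PSMB4 overlapped and 30.3% of all tested genes lay below. The 4 that did not pass were PSMB5, PSMB2 (-0.07), PSMB3 (-0.13) and PSMB4 (-0.11). The 7 tested alpha subunits, which gate the entry to the barrel, were mixed. PSMA6 and PSMA4 were higher, PSMA7 was lower, and PSMA1, PSMA2, PSMA3 and PSMA5 were not called (between -0.001 and 0.34). PSMA8, the alpha subunit of the testis, and PSMB11, the catalytic subunit of the thymus, had 0 counts in every sample and were not tested.

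PSMA6 had the largest rise of a constitutive member and one of the lowest levels. It had 5.54 and 8.54 CPM in shCON and 18.1 and 16.6 CPM in shZDHHC15, with 101 and 144 counts against 337 and 325. The groups did not overlap (log2 fold change 1.31, SE 0.188, edgeR adjusted p = 6.63e-05). PSMA6 shares 80.95% of its principal transcript with the readthrough gene AL121594.1 on the same strand, a row with 0 or 1 count per sample, and how reads in shared exons were assigned is not given in the sources used here. PSMA1 (53.2% shared), PSMA2 (52.5%) and PSMD9 (19.9% of exonic bases) share exons in the same way. The mean levels were 15.3 TPM for PSMA1, 6.67 TPM for PSMA6 and 1.45 TPM for PSMA2. The 11 other tested subunits of the constitutive core ranged from 59.7 to 1052 TPM over single samples. In the assembled core each alpha and beta position is filled in equal copies. PSMD9, a cap assembly factor and not a core subunit, had a mean of 3.02 TPM. The part of the shared exons in these low levels was not tested.

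PSMA4, the alpha3 subunit, had 122 and 127 CPM in shCON and 174 and 157 CPM in shZDHHC15, and thus no overlap between groups (log2 fold change 0.41, SE 0.0956, edgeR adjusted p = 0.00318). PSMA7, the alpha4 subunit and the most abundant member per length, went the other way, with 475 and 560 CPM in shCON and 402 and 406 CPM in shZDHHC15. Its groups did not overlap, although the 2 controls differed by more than the 2 shZDHHC15 samples (log2 fold change -0.36, SE 0.0954, edgeR adjusted p = 0.00765).

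Of the 17 tested subunits of the 19S cap, 2 were higher and 3 lower, beside 21.7% and 20.3% of all tested genes. PSMD1, the large scaffold subunit Rpn2, had 106 and 92.6 CPM in shCON and 142 and 135 CPM in shZDHHC15 (log2 fold change 0.48, SE 0.100, edgeR adjusted p = 0.00139). PSMC2, one of the 6 ATPases that unfold substrates, had 86.2 and 83.2 CPM against 107 and 108 CPM (0.34, SE 0.0952, edgeR adjusted p = 0.00982). Both rose with no overlap between groups. PSMC3, another ATPase, had 187 and 207 CPM in shCON and 153 and 150 CPM in shZDHHC15 (-0.38, SE 0.0937, edgeR adjusted p = 0.00459). PSMD8, a lid subunit, had 225 and 257 CPM against 177 and 195 CPM (-0.38, SE 0.0984, edgeR adjusted p = 0.00632). PSMD2, the scaffold subunit Rpn1, was lower by 0.35 on the log2 scale and is the cap member with the highest level per length (529 TPM as the mean of all samples). The other 12, among them the ubiquitin receptor PSMD4 (-0.19) and the deubiquitinase PSMD14 (0.001), were not called and lay between -0.22 and 0.09. PSMC1 shares 75.8% of its exonic bases with NRDE2 on the opposite strand, and whether counting used the strand is not given in the sources used here.

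Among assembly factors and other regulators, PSMG3, a chaperone that helps to build the 20S core, fell most of all members. It had 92.7 and 98.6 CPM in shCON and 59.5 and 66.7 CPM in shZDHHC15, so that both shZDHHC15 samples lay well below both controls (log2 fold change -0.60, SE 0.103, edgeR adjusted p = 3.15e-04). The chaperones PSMG1 (-0.12), PSMG2 (-0.02) and PSMG4 (-0.14) were not called. Of the 3 factors that assemble the cap base, PSMD5 was higher (0.34) and PSMD9 (-0.29) and PSMD10 (-0.24) were not called. PSME4, the PA200 activator, had 91.4 and 78.0 CPM in shCON and 121 and 113 CPM in shZDHHC15 (0.47, SE 0.105, edgeR adjusted p = 0.00238). PSMF1, the regulator PI31, first described as an inhibitor of the core, was lower by 0.23 on the log2 scale with an edgeR adjusted p of 0.0461.

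**Figure D2:**
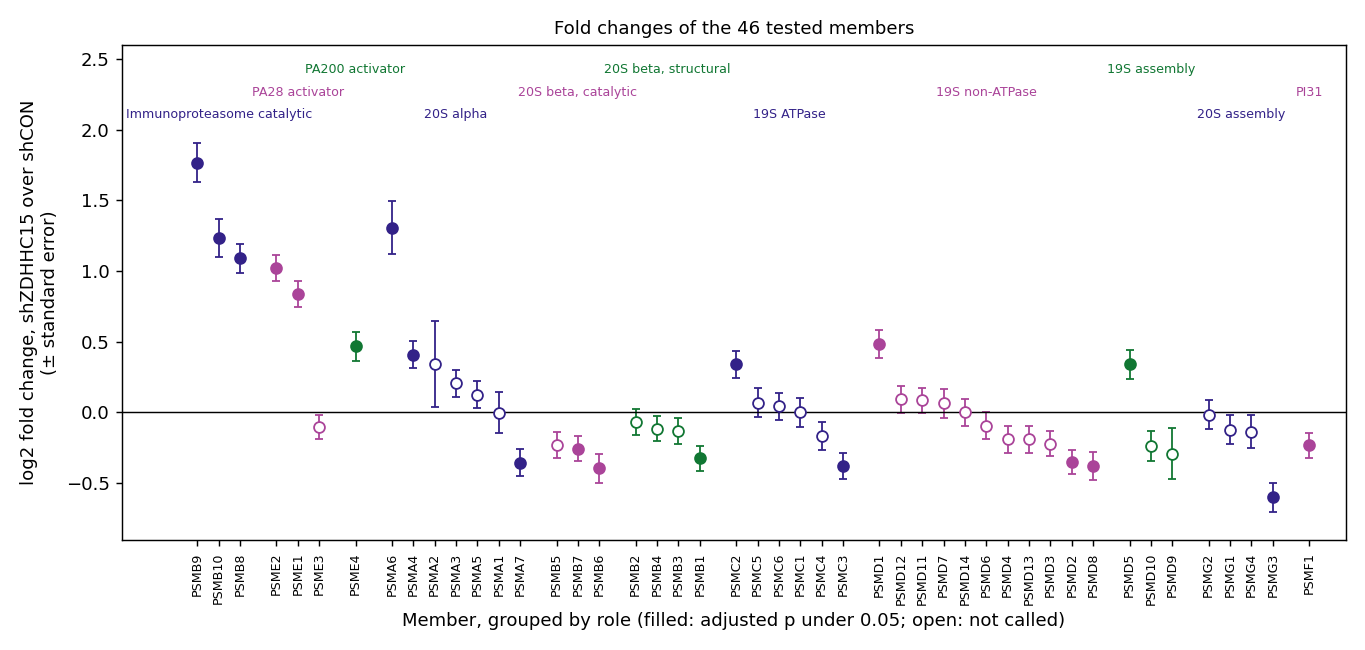
Log2 fold change (shZDHHC15 over shCON, with its standard error) of the 46 tested members, grouped by role, filled where the adjusted p was under 0.05. The 5 inducible members lie between 0.84 and 1.76, and the constitutive members between -0.60 and 0.48 apart from PSMA6 at 1.31.

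The calls of the constitutive members depended on single samples. Without shZDHHC15 sample 1, 3 were called higher and 4 lower, and without shCON sample 1, 6 were called higher and 15 lower, in place of 6 and 9. Over all genes the share called moved too, from 21.7% higher and 20.3% lower to 15.3% and 13.3% without shZDHHC15 sample 1, and to 20.4% and 20.9% without shCON sample 1. The 5 inducible members were called higher in every such fit. Without the members whose exons share the strand with another gene over more than 10%, a choice made after seeing the data, 5 constitutive members were higher and 9 lower.

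Among the constitutive members those called higher were longer and less abundant than those called lower. The median exonic length was 5846 bases in the 6 higher members, 2256 bases in the 9 lower and 4805 bases in the 26 not called. The median level per length was 69.4 TPM in the higher and 257 TPM in the lower members. Across the 41 members, which come from the same 4 libraries and are not replicates, the fold change had a Spearman's rho of 0.523 with length and -0.571 with level (Pearson's r 0.451 and -0.507). Across all 15817 tested genes the same rho was 0.245 with length and -0.208 with level. Among the 12957 tested protein-coding genes it was 0.292 and -0.246. The level is itself divided by length, so the correlations with length and with level are not separate observations. These are descriptions, and the part of length or level in the fold changes was not tested.

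Factors that work with the proteasome but carry other names were read from a list of 17, all tested. Of these, 4 were higher and 5 lower, with a median log2 fold change of 0.047. Among all tested genes, 21.7% were called higher and 20.3% lower. ECPAS, an adaptor that binds the 26S proteasome, was higher by 0.70 on the log2 scale (1954 and 1548 counts against 2954 and 3212), and ZFAND5, a proteasome-binding zinc finger protein, by 0.53. ADRM1 (-0.47) and SEM1 (-0.37), which are cap subunits outside the naming rule, were lower. Of 10 regulators of proteasome gene transcription, with a median of 0.099, STAT3 was higher (0.73), and MAFF (-1.03) and MAFK (-0.85), small Maf partners of the NRF factors, and KEAP1 (-0.64), which targets NFE2L2 for degradation, were lower. NFE2L1, the factor that raises proteasome genes when the proteasome is inhibited, was not called (0.06, SE 0.0910, edgeR adjusted p = 0.634).

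Genes that act with the immunoproteasome in interferon signalling and peptide display were higher too. Of 13 genes listed for interferon signalling, 12 were higher (median 1.34), beside 21.7% of all tested genes. Among them were CIITA at 2.09 and STAT2 at 1.90 on the log2 scale, and SOCS1, a feedback inhibitor, was not called (0.38). STAT2 had 1001 and 855 counts in shCON and 3755 and 3774 counts in shZDHHC15. All 15 genes of peptide loading and MHC class I display were higher (median 0.70), with HLA-F at 1.96, the trimming peptidase ERAP2 at 1.81 and TAP1 at 1.61 at the head. These lists were written with results of these samples known, so their direction is not independent evidence. The MHC class I heavy chain genes are similar in sequence, and reads may be split between them.

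The 5 inducible members lie at 3 places in the genome. PSMB8, on the minus strand at chr6:32840717-32844703, and PSMB9, on the plus strand at chr6:32844136-32859585, overlap within the MHC class II region. Within 50 kb of either, a distance chosen after seeing the data, the 4 other tested genes were TAP1, TAP2 (0.70), PSMB8-AS1 (1.70) and HLA-DOB (0.92), all of them higher by edgeR and 3 of the 4 by DESeq2. PSMB8-AS1 shares exonic bases with both PSMB8 and PSMB9. PSME1 (chr14:24136158-24138967, plus strand) and PSME2 (chr14:24143362-24147570, minus strand) had 11 other tested genes within the same distance. Of these, 4 were higher, namely REC8 (2.15), IRF9 (1.88), AL136295.5 (1.78) and RNF31 (0.49), EMC9 was lower (-0.59) and 6 were not called. Among all tested genes, 21.7% were called higher and 20.3% lower. Around PSMB10 (chr16:67934502-67937087, minus strand), 0 of the 5 other tested genes were called by edgeR, 0 by DESeq2 and 0 at an unadjusted p under 0.05, and their log2 fold changes lay between -0.34 and 0.01.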

How the data were processed

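RNA-seq of 2 shCON and 2 shZDHHC15 samples of HCC1954 cells was analysed. Libraries were made with the NEBNext Ultra kit. The authors deposited 1 table of raw counts per gene, not normalized, beside the position, length and class of each gene. Per the labels' processing notes, HISAT2, StringTie, SAMtools and hg38 were used. Their versions and roles, the counting tool, the annotation and the strand setting are not given in the sources used here. All 58735 identifiers matched GENCODE 29 on GRCh38 in start and end. Rows without a gene and sample columns not used here both numbered 0.

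The members and the gene lists were chosen with earlier results of these data known. Genes were filtered with filterByExpr (15817 left), scaled by TMM (0.987, 0.962, 1.02 and 1.03 for shCON 1, shCON 2, shZDHHC15 1 and shZDHHC15 2) and tested with edgeR 4.0.16 (glmQLFit, legacy = FALSE, glmQLFTest; R 4.3.3, limma 3.58.1), with Benjamini-Hochberg adjustment over all tested genes and a limit of 0.05. Fold changes are relative to this scaling, and fewer cells of a type and less RNA per cell cannot be told apart. The F statistic and the fold change gave the standard errors. CPM are counts relative to the scaled library size. Levels per length (TPM) divide counts by the gene length in the table, which covers the exons of all transcripts and can exceed that of the transcript expressed. Exon sharing was read from GENCODE 29, and near-identical copies (at least 150 bases at 97% identity, BLAST 2.17.0, Python 3.11.15) were found elsewhere for 7 members, PSMA6, PSMC1, PSMC6, PSMD12, PSMD2, PSMD4 and PSME2, whose reads may be split. Samples of a group differed by more than sampling noise (chi-square per degree of freedom 8.32 and 6.79).

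Named with values in every sample are the inducible members, PSMB5, PSMB6, PSMB7, PSME3 and the constitutive members with the 5 largest changes in each direction among those called. Of each list the 3 largest called changes are named, except for results that are not reported here, and ADRM1, SEM1, KEAP1, NFE2L1, SOCS1 and the neighbouring genes were named after their values were seen. Alternatives were DESeq2 1.42.0 size factors and Wald test, library size only, upper-quartile factors, no filter, a minimum of 10 counts per sample, quasi-dispersions in the legacy mode, a replicate block and each sample left out. The fit was tested on simulated data.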

Additional observations from a re-analysis of the deposited data

Results flagged for a closer look

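Rows outside the protein-coding members also differed between groups. PSMB8-AS1, a lincRNA antisense to PSMB8, had 72 and 60 counts in shCON and 232 and 237 counts in shZDHHC15 (log2 fold change 1.70, edgeR adjusted p = 6.11e-06). It shares 20.6% of the exonic bases of PSMB8 on the opposite strand, and without a stated strand setting their reads cannot be told apart. It also shares 5.66% of the exonic bases of PSMB9, on the same strand. AC116347.1, a processed pseudogene with a stretch near-identical to PSME2, had 9 and 18 counts against 40 and 35 (1.34, edgeR adjusted p = 0.0163). PSME2P2, another such pseudogene, had 4 and 5 counts against 20 and 12 (1.68, edgeR adjusted p = 0.0355). The counts of both are small beside the 2339 and 2312 against 5208 and 5088 counts of PSME2 itself.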

How the results depend on the processing

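All 5 inducible members kept their call and direction under the 8 alternative settings and with each sample left out, their median ranging from 0.95 to 1.20 with a sample left out. Of the 15 called constitutive members, 12 kept their call under the 8 settings (PSMB7, PSMD5 and PSMF1 lost it in at least 1) and 7 with each sample left out, and none changed sign. PSMA3, PSMB5 and PSMD3 gained a call in at least 1 setting. The constitutive median was -0.029 with library size only, where the median of all tested genes was 0.090, and ranged from -0.145 to -0.071 with a sample left out. The number of constitutive members called higher ranged from 3 to 6 and lower from 4 to 15 with a sample left out, each such fit assuming that the lone sample varies like the other group.

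Ratios of counts without division by length were 0.666 in shCON and 1.67 in shZDHHC15 for PSMB8/PSMB5, 0.472 and 2.12 for PSMB9/PSMB6, and 0.0544 and 0.152 for PSMB10/PSMB7. With full counts over the length of the exonic bases that no other gene overlaps, they were 0.494 and 1.24 for PSMB8/PSMB5. For PSMB10/PSMB7 they were 0.0804 and 0.225. This length was chosen after seeing the data, and any reads counted in shared bases were not removed.

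The labels number the samples 1 and 2 in both groups, but the deviations of same-numbered samples had a correlation of 0.034, so the numbers were not taken as pairs. With the number as a replicate block, 5 inducible members were higher, 6 constitutive members were higher and 11 lower, and PSMB5 passed the threshold (-0.23, edgeR adjusted p = 0.0253). That setting called 23.5% of all tested genes higher and 22.1% lower, in place of 21.7% and 20.3%. Over all genes, 3427 were called higher with the filter on low counts and 2282 without it, when 30168 genes were tested.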

Other observations

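Of the other antisense rows of members, those with enough counts to be tested were not called. PSMD6-AS2 had 15 and 18 counts in shCON and 42 and 25 counts in shZDHHC15 (log2 fold change 0.89, edgeR adjusted p = 0.0938), and PSMG3-AS1, beside the member that fell most, had 213 and 219 counts against 275 and 271 (0.21, edgeR adjusted p = 0.275).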
